A study of Mus musculus with 17 samples.

Results

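Skeletal muscle genes, sorted by the type of muscle fibre each is known for, were examined in mouse mammary tumours. The list held 36 genes chosen by their known roles, and 34 of them had a probe set that named them alone, out of 12393 genes measured. No probe set was named for Neb, the giant thin filament protein nebulin, or for Ampd1, the muscle AMP deaminase, and neither was analysed here. Of the 34 members, 9 were fast-fibre genes, 6 slow-fibre genes, 4 developmental genes and 15 further muscle genes that the rule assigned to no fibre type. Where a gene had several probe sets, the one with the highest mean over all 17 arrays stood for it.

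The study measured total RNA of 17 mammary tumours of FVB mice on Affymetrix arrays, 1 array per tumour. All tumours arose under MMTV-Myc T58A, in which the MMTV promoter, active in mammary epithelium, drives a mutant form of the transcription factor Myc, and all carry the label low expressing. The histology label named 6 tumours EMT (epithelial to mesenchymal transition), 1 Papillary, 1 Microacinar and 9 Squamous. No array of normal gland or of muscle was used here, the age of the mice is not given in the sources used here, and the labels do not say whether each tumour came from its own mouse. Every p below thus reflects variation among the tumours on hand, and some of that variation may be technical. Tumour numbers within a histology are names only.

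Skeletal muscle is built of fibres that contract quickly or slowly, and each kind assembles its sarcomeres, the contractile units, from its own forms of myosin, troponin and light chain. In adult mice fast fibres use the heavy chains Myh2, Myh1 and Myh4, which mark types IIa, IIx and IIb, while slow fibres use Myh7 together with light chains and a troponin C that the heart ventricle also uses. Embryonic and newborn muscle uses Myh3 and Myh8, and the transcription factors Myod1 and Myog drive precursor cells to become fibres. The mammary gland itself holds no skeletal muscle, and in mice a thin sheet of skin muscle and the muscles of the body wall lie beside it.

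The start regions of 4 members are shown because these genes carry the contrasts described below: Myh1 and Myh4, fast myosins that put the tumours in different orders, Tnnc1, a slow gene, and Acta1, the skeletal actin. RefSeq promoter windows on GRCm38.p6, from 250 bases before to 50 after the start, were matched by gene for 27 of 34 members. The windows are chr11:67199852-67200151 on the plus strand for Myh1, chr11:67237562-67237861 on the plus strand for Myh4, chr14:31208062-31208361 on the plus strand for Tnnc1 and chr8:123894726-123895025 on the minus strand for Acta1. Capitals mark matches to the E-box CANNTG, which reads the same on both strands and is the letter pattern of the Myod1 family, to the MEF2 motif and to the CArG box, each searched on both strands, and no marked matches overlap in these windows.
Myh1: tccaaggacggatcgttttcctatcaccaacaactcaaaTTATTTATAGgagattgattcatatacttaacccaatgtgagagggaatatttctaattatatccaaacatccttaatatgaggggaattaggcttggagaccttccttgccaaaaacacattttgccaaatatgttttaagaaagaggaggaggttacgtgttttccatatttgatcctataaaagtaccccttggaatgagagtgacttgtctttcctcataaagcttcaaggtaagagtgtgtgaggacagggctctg
Myh4: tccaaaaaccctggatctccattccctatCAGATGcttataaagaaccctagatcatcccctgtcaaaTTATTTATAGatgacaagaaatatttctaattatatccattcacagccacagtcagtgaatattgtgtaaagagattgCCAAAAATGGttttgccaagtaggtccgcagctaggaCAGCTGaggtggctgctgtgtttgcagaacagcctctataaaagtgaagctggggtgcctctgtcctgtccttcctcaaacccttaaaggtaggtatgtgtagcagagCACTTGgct
Tnnc1: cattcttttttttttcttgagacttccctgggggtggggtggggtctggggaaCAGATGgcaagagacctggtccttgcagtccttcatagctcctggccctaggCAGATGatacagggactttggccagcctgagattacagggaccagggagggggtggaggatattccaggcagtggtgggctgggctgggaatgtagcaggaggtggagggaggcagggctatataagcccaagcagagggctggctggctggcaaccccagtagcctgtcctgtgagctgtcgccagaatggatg
Acta1: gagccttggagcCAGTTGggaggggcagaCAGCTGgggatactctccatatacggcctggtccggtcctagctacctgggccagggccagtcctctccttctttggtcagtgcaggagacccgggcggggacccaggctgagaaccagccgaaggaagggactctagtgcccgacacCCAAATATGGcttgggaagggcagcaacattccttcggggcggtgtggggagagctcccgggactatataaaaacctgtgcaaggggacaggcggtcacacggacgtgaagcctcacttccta

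An E-box stood in the window of 24 of the 27 members, beside 72.3% of all 32851 promoters. A member counted when any of its windows matched, whereas the shares are of single windows, so the 2 measures are not alike. A MEF2 match stood in 5 members, Myh1, Myh4, Myh8, Pvalb and Ttn, beside 3.19% of all promoters, and a CArG match in 3 members, Acta1, Myh4 and Myl3, beside 1.63%. Myh1 and Myh4 carry the same MEF2 letters, which begin at −211 and −182 relative to the start. Of the 6 fast members with a window 3 had a MEF2 match, and of the 6 slow members 0 did. A match is a run of letters and not a shown binding site.

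The 17 arrays had medians of 7.23 to 7.40 on the deposited log2 scale. EMT 5, EMT 6 and Squamous 9 had titles of another format (TM), a wider spread over probe sets (SD 2.46 to 2.51, against 2.25 to 2.29 on the 14 numbered arrays) and minima of 2.47 to 2.63 against 3.07 to 3.23. On these 3 arrays 2989 probe sets shared 1 exact value, and 6 members, Myh7, Myh3, Myh8, Myl3, Myog and Myod1, had equal values on at least 2 of them, so low values there have no order. The mammary label was set against keratin 8, a simple epithelial keratin, whose median over the tumours was 12.50, and against the epithelial adhesion protein gene Epcam, with a median of 11.92 but 7.09 in EMT 4 and 7.56 in EMT 6. In EMT 5 all 13 listed epithelial genes, keratin 8 and Epcam included, stood at −1.76 or lower relative to their medians. The 3′ minus 5′ difference of the Gapdh control probe sets, higher in less intact RNA, ran from −0.03 to 0.39, with EMT 4 the highest and Squamous 8 at 0.38. That of the Actb control probe sets ran from 0.44 in EMT 6 to 0.96 in Squamous 2, with EMT 4 at 0.64.

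High muscle gene levels were found in some tumours of every histology. Each gene was set against its own median over the 17 tumours, and a gene counted as high in a tumour when it lay more than 1 log2 unit above that median. EMT 4 had 31 high members of 34, beside 6.38% of all genes, and the Microacinar tumour had 29, beside 3.11%. The Papillary tumour had 21, beside 2.57%. In the EMT group EMT 6 had 19 (9.91% of all genes), EMT 2 had 11 (4.7%), EMT 5 had 2 (11.6%), EMT 3 had 1 (1.11%) and EMT 1 had 0 (2.33%). In the Squamous group Squamous 6 had 18 (1.63%), Squamous 3 had 17 (2.75%), Squamous 1 had 15 (1.83%) and Squamous 2 had 1 (2.56%). The other 5 Squamous tumours had 0 high members, beside 2.39% of all genes in Squamous 4, 1.68% in Squamous 5, 2.12% in Squamous 7, 2.77% in Squamous 8 and 6.16% in Squamous 9. These counts describe single tumours and carry no test. In whole tumour pieces, fewer muscle cells and less RNA per muscle cell cannot be told apart. The Microacinar tumour and Squamous 5 share a number in their titles and differed, with 29 and 0 high members, while Squamous 7 and Squamous 8 share another and had 0 each.

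**Figure D1:**
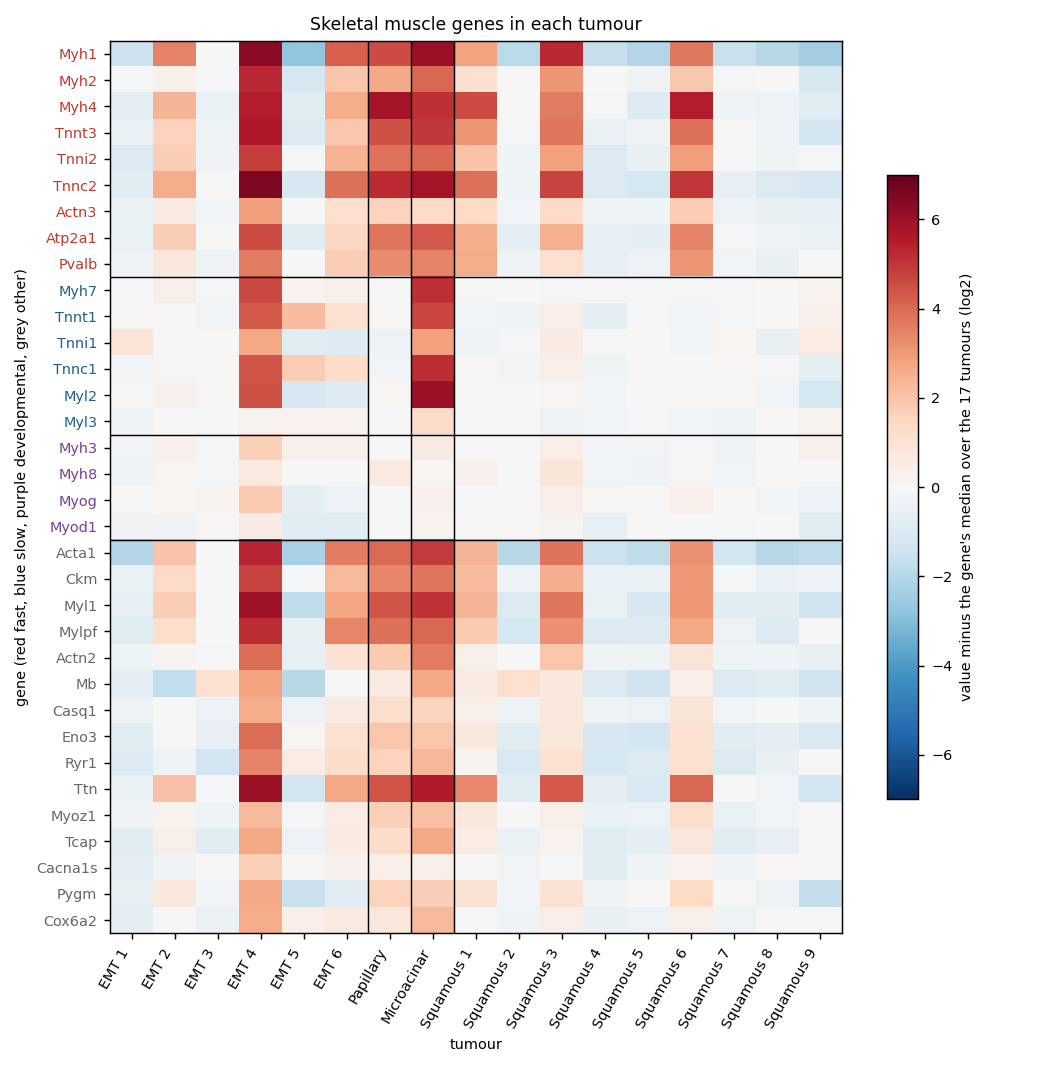
Deviation of each of the 34 members (rows, coloured by class) from its own median over the 17 tumours, in log2 units, in each tumour (columns, grouped as EMT, Papillary, Microacinar and Squamous). EMT 4 and the Microacinar tumour are red through fast and slow genes, while EMT 2, EMT 6, the Papillary tumour and Squamous 1, 3 and 6 are red in fast and further genes, with slow medians of at most 0.33.

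The 3 classes differed in the tumours where they were high. The median deviation of the 9 fast members was over 1 in 8 tumours: it was 1.72 in EMT 2, 5.26 in EMT 4, 1.93 in EMT 6, 3.82 in the Papillary tumour, 4.27 in the Microacinar tumour, 2.61 in Squamous 1, 3.07 in Squamous 3 and 3.47 in Squamous 6. The median of the 6 slow members was over 1 in 2 of these tumours only, at 4.35 in EMT 4 and 4.88 in the Microacinar tumour, and lay between −0.19 and 0.33 in the other 15. The 4 developmental members had a median over 1 in EMT 4 alone, at 1.16, followed by 0.46 in Squamous 3 and 0.28 in the Microacinar tumour. The Papillary tumour and Squamous 6, with fast medians above 3, thus had slow medians of 0.00 and −0.16. Many slow and developmental probe sets sat low on the array, since Myh7 and Myl2 lay below the array's lower quartile in 15 of 17 tumours, Myh3 and Myog in 16 and Myh8 in all 17, and a small amount of such RNA could go undetected there.

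**Figure D2:**
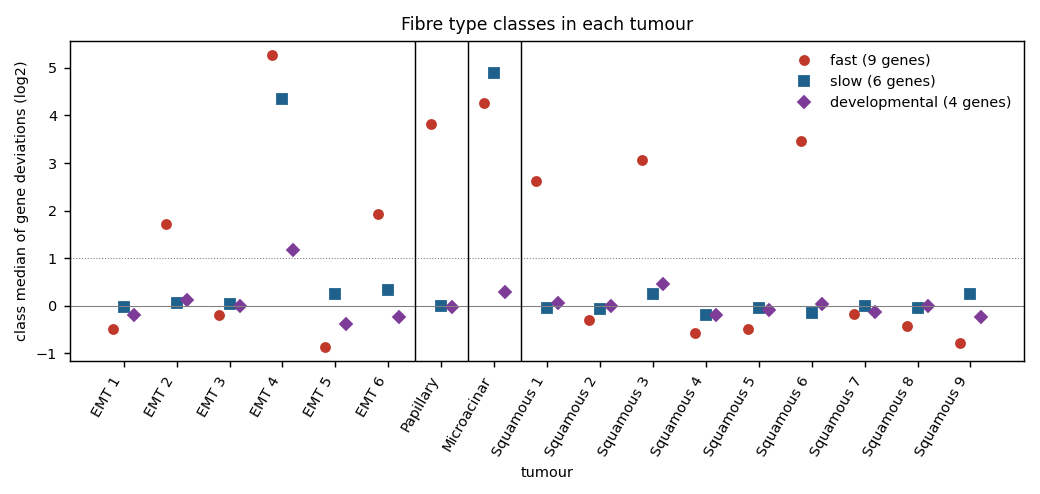
Median deviation (log2) of the fast (9 genes), slow (6) and developmental (4) members in each tumour, with a dotted line at 1. Fast medians pass the line in 8 tumours, slow medians in EMT 4 and the Microacinar tumour, and the developmental median in EMT 4.

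Myh1, the type IIx chain, had the widest range of the 34 members. It had a lowest, median and highest value of 3.05, 7.54 and 12.15 in EMT tumours, 10.40 in the Papillary tumour, 11.82 in the Microacinar tumour, and 3.39, 4.21 and 11.07 in Squamous tumours. Its highest EMT values were those of EMT 4, EMT 6 (10.03) and EMT 2 (9.26), and its highest Squamous values those of Squamous 3, Squamous 6 (9.50) and Squamous 1 (8.62), so the 2 histologies overlapped over most of their ranges. The IIb chain Myh4 lay at 3.76, 5.60 and 10.14 (lowest, median, highest) in EMT tumours, 10.45 in the Papillary tumour, 9.73 in the Microacinar tumour, and 3.73, 4.50 and 10.14 in Squamous tumours. EMT 4 and Squamous 6 thus both had 10.14 for Myh4, while for Myh1 the EMT 4 value was 12.15 and the Squamous 6 value 9.50. The IIa chain Myh2 lay at 3.38, 4.64 and 9.79 in EMT tumours, 7.17 in the Papillary tumour, 8.56 in the Microacinar tumour, and 3.42, 4.52 and 7.60 in Squamous tumours.

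Myh1 and Myh4 put the 8 tumours in different orders. EMT 6 had 10.03 for Myh1 and 7.24 for Myh4, and Squamous 3 had 11.07 and 8.28. Squamous 1 had 8.62 for Myh1, below both of these tumours, and 9.20 for Myh4, above both, and Squamous 6 had 9.50 and 10.14. The highest tumour was EMT 4 for Myh1 and the Papillary tumour for Myh4. These orders were looked at after the values were seen and have no test. Myh3, Myh2, Myh1, Myh4 and Myh8 lie side by side on chromosome 11, between 67078273 and 67308634 on GRCm38, and are close in sequence, and whether their probe sets cross-hybridise could not be checked. A second Myh1 probe set gave 12.18 in EMT 4, 10.16 in the Papillary tumour and 9.31 in Squamous 6, close to the one used, while the remaining Myh1 probe set stayed between 4.22 and 5.17 on all arrays.

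The troponin subunits of fast fibres followed the myosins. Tnnc2, the calcium-binding subunit, lay at 4.68, 7.10 and 12.33 (lowest, median, highest) in EMT tumours, 11.04 in the Papillary tumour, 11.60 in the Microacinar tumour, and 4.55, 5.20 and 10.78 in Squamous tumours. Tnnt3, the subunit that binds tropomyosin, lay at 4.28, 5.90 and 10.86 in EMT tumours, 9.73 in the Papillary tumour, 10.22 in the Microacinar tumour, and 3.95, 5.18 and 9.12 in Squamous tumours. Tnni2, the inhibitory subunit, had highest values of 11.07 in EMT 4 and 9.13 in Squamous 6. For all 3 the EMT and Squamous ranges overlapped. The fast members outside the thick and thin filaments went the same way with smaller ranges. Pvalb, the calcium buffer parvalbumin, lay at 5.08, 5.84 and 9.07 in EMT tumours, 8.77 in the Papillary tumour, 8.93 in the Microacinar tumour, and 4.88, 5.27 and 8.53 in Squamous tumours. Atp2a1, the calcium pump of the fast sarcoplasmic reticulum, reached 11.08 in EMT 4 and 10.01 in Squamous 6. Actn3, the fast-fibre actinin of the Z disc, reached 8.39 in EMT 4 and 7.24 in Squamous 6. In EMT 2 the fast class was high in 6 of 9 members, and Myh2, Actn3 and Pvalb, at deviations of 0.35, 0.59 and 0.79, were the others. In the remaining 7 of the 8 tumours all 9 fast members were high.

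Slow-fibre genes were high in a pair of tumours from different histologies. Myh7, the slow and ventricular heavy chain, lay at 4.63, 5.11 and 9.40 (lowest, median, highest) in EMT tumours, 4.77 in the Papillary tumour, 9.87 in the Microacinar tumour, and 4.62, 4.71 and 5.04 in Squamous tumours. The value of 9.40 was that of EMT 4, and no other EMT tumour passed 5.19. Myl2, the slow and ventricular regulatory light chain, had 9.35 in EMT 4 and 10.91 in the Microacinar tumour, and 3.64 to 5.19 in the other 15 tumours. Tnni1, the slow inhibitory troponin, had 8.79 in EMT 4 and 8.95 in the Microacinar tumour, followed by 7.01 in EMT 1, which had no high member. The Microacinar tumour was the highest of all 17 for each of the 6 slow members, whereas EMT 4 was the highest for 26 of the 34 members overall.

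Tnnc1 and Tnnt1, the slow calcium-binding and tropomyosin-binding troponins, were also high in EMT 5 and EMT 6, without Myh7 or Myl2. Tnnc1 lay at 4.62, 5.53 and 9.22 (lowest, median, highest) in EMT tumours, 4.67 in the Papillary tumour, 10.004 in the Microacinar tumour, and 4.22, 4.79 and 5.24 in Squamous tumours. The EMT 5 and EMT 6 values were 6.61 and 6.13, above every Squamous tumour. Tnnt1 had 7.18 in EMT 5 and 6.09 in EMT 6, beside 9.27 in EMT 4, and its highest Squamous value was 5.40. In EMT 5 the fast median was −0.86 and Tnnt1 and Tnnc1 were its 2 high members. Both are TM arrays, and the third TM array, Squamous 9, had 5.30 for Tnnt1 and 4.22 for Tnnc1. Myl3, the slow and ventricular essential light chain, had 6.13 in EMT 4 and 7.25 in the Microacinar tumour on the probe set used, and on all 3 TM arrays it also printed as 6.13. Another Myl3 probe set gave 6.999 in EMT 4 and 8.26 in the Microacinar tumour, against at most 4.45 in the others. The remaining Myl3 probe set gave 5.37 in EMT 4, 6.47 in the Microacinar tumour and 5.36 in Squamous 1. The low Myl3 deviation of EMT 4 thus depends on the probe set.

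Developmental members stayed near their medians outside EMT 4. Myog, the myogenin transcription factor of fusing precursor cells, lay at 3.98, 4.75 and 6.49 (lowest, median, highest) in EMT tumours, 4.63 in the Papillary tumour, 4.98 in the Microacinar tumour, and 4.25, 4.66 and 5.15 in Squamous tumours. Myh3, the embryonic myosin, lay at 4.49, 5.00 and 6.33 in EMT tumours, 4.61 in the Papillary tumour, 5.23 in the Microacinar tumour, and 4.41, 4.64 and 5.11 in Squamous tumours. EMT 4 held the highest value of both, with deviations of 1.81 and 1.67, and the EMT and Squamous groups otherwise overlapped. Myod1, the determination factor of muscle precursors, had its highest value, 6.76, in EMT 4 and its lowest, 5.41, on the 3 TM arrays. Myh8, the perinatal myosin, had 4.39 in EMT 4, 4.40 in the Papillary tumour and 4.61 in Squamous 3, its highest value. The Microacinar tumour, whose slow genes were the highest, had deviations of 0.16 to 0.57 in the 4 developmental members.

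**Figure D3:**
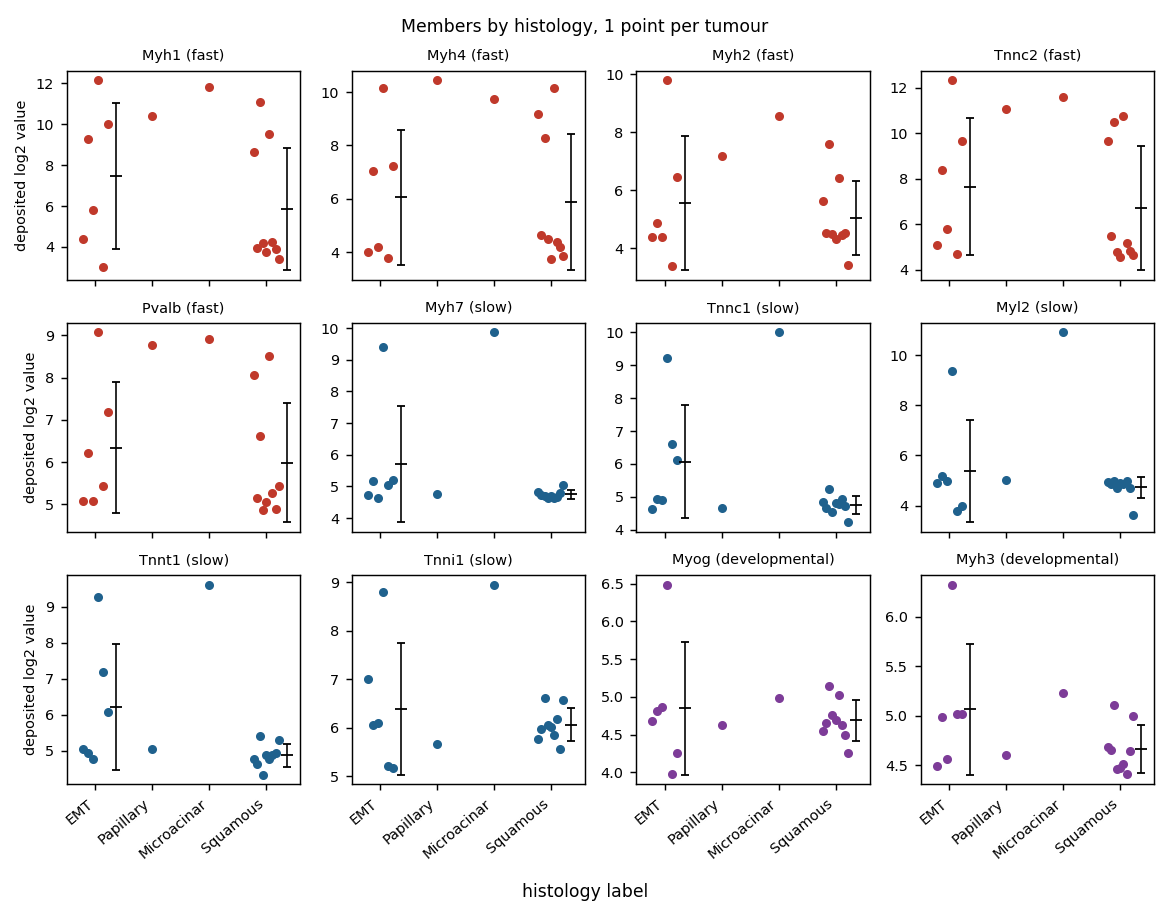
Deposited log2 values of 12 members (5 fast in red, 5 slow in blue, 2 developmental in purple), 1 point per tumour by histology, with mean and SD bars for EMT (n = 6) and Squamous (n = 9). Fast genes split both histologies, with Myh1 up to 12.15 in EMT and 11.07 in Squamous tumours, while for slow genes EMT 4 and the Microacinar tumour stand apart, with Myh7 at 9.40 and 9.87.

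The 15 further members were high in the tumours with high fast genes, in varying number. Acta1, skeletal alpha-actin, lay at 6.09, 9.38 and 13.72 (lowest, median, highest) in EMT tumours, 12.34 in the Papillary tumour, 13.25 in the Microacinar tumour, and 6.43, 6.90 and 12.19 in Squamous tumours. Ckm, the muscle creatine kinase, lay at 6.08, 7.24 and 11.30 in EMT tumours, 9.99 in the Papillary tumour, 10.31 in the Microacinar tumour, and 6.07, 6.26 and 9.58 in Squamous tumours. Both histologies held tumours near the bottom and near the top of these ranges. Ttn, the sarcomere spring titin, and the fast light chains Myl1 and Mylpf had values of 11.55, 11.70 and 11.24 in EMT 4. In Squamous 3 the same genes had values of 9.83, 9.52 and 9.25. All 15 were high in EMT 4, 14 in the Microacinar tumour, 12 in the Papillary tumour, 9 in Squamous 6, 8 each in EMT 6 and Squamous 3, 6 in Squamous 1 and 5 in EMT 2.

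The remaining further members follow. Eno3, the muscle enolase, was 3.92 above its median in EMT 4 and 1.92 in the Microacinar tumour. Pygm, the muscle glycogen phosphorylase, had deviations of 2.64 in EMT 4 and −0.80 in EMT 6, where the fast genes were high. Ryr1, the calcium release channel, and Cacna1s, the voltage sensor coupled to it, had deviations of 3.46 and 1.69 in EMT 4 and of 2.34 and 0.45 in the Microacinar tumour, so that Cacna1s was the further member that was not high there. Actn2, the actinin of all Z discs, and Casq1, the calcium store protein of fast fibres, had deviations of 3.91 and 2.61 in EMT 4. Myoz1 and Tcap, small Z disc proteins, had 2.26 and 2.70 in EMT 4 and 2.08 and 2.69 in the Microacinar tumour. Cox6a2, the heart and muscle form of a cytochrome oxidase subunit, had 2.58 and 2.25. Mb, the oxygen carrier myoglobin, was also highest in EMT 4 (10.91) and the Microacinar tumour (10.77), but departed from the rest in other tumours. It lay at 9.17 in EMT 3 and 9.26 in Squamous 2, the single high member of each, and at 6.33 in EMT 2, where Myh1 was at 9.26. Its other probe set stayed between 4.86 and 5.23 on all 17 arrays.

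EMT tumours were compared with Squamous tumours by limma, with the title format as a term and Benjamini-Hochberg adjustment over all 12393 genes. At an adjusted p of 0.05 limma called 0 of 34 members, and 0% of all genes were called. At an unadjusted p under 0.05 it held 1 member, Tnnc1, beside 14.3% of all genes, or 8.08% counted in the direction of higher in EMT, so the members' share was below the background. Tnnc1 averaged 6.07 ± 1.73 in EMT tumours (SD, n = 6) and 4.75 ± 0.28 in Squamous tumours (SD, n = 9), and the fitted difference was 1.31 (SE 0.59, limma adjusted p = 0.334). Myh1 averaged 7.45 ± 3.56 in EMT tumours and 5.85 ± 2.99 in Squamous tumours, with a fitted difference of 2.02 (SE 1.67, limma adjusted p = 0.597), so the difference was smaller than the spread in either group. Myh7 averaged 5.70 ± 1.83 in EMT tumours and 4.75 ± 0.13 in Squamous tumours, with a fitted difference of 1.04 (SE 0.61, limma adjusted p = 0.446). Myog averaged 4.85 ± 0.88 in EMT tumours and 4.69 ± 0.27 in Squamous tumours, with a fitted difference of 0.34 (SE 0.25, limma adjusted p = 0.542). The EMT and Squamous values overlapped for all 34 members, and did not overlap for 0.25% of all genes.

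A single tumour carried the direction of most of these differences. All 34 fitted values were above 0, beside 51.8% of all genes. Without EMT 4 they were above 0 for 12 members and below 0 for 22. Those 12 were 5 of 6 slow, 2 of 9 fast, 1 of 4 developmental and 4 of 15 further members. The median fitted difference was 0.72 for fast members (−0.12 without EMT 4), 1.04 for slow members (0.15 without EMT 4), 0.21 for developmental members (−0.04 without EMT 4) and 0.64 for all members (−0.04 without EMT 4), against 0.01 for all genes. Without EMT 4, the fitted difference was 0.50 for Tnnc1 (SE 0.28, limma unadjusted p = 0.0982), which then missed the unadjusted threshold, and 0.12 for Myh7 (SE 0.09). Myl2 then passed that threshold with 0.18 (SE 0.08, limma unadjusted p = 0.0379, adjusted p = 0.461). On the numbered arrays of EMT and Squamous tumours alone the median over all members was 0.62. On the 3 TM arrays, with 1 Squamous tumour and no test, that median was 0.86. The Papillary and Microacinar tumours, 1 array each, were set against no group by a test.

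**Figure D4:**
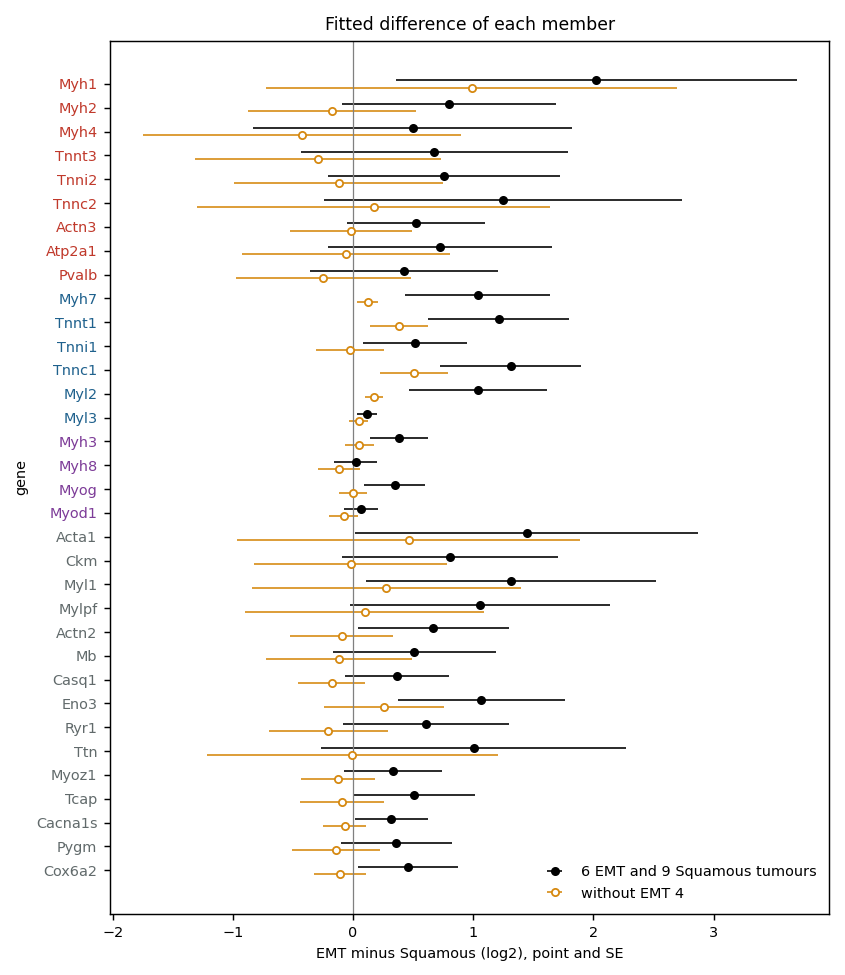
Fitted EMT minus Squamous difference (log2) and its SE for each member, with all 6 EMT and 9 Squamous tumours (filled) and without EMT 4 (open), with names coloured by class. All 34 filled points lie above 0, and 22 of the open points lie below it.

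Some muscle genes outside the list were also high in EMT 4 and the Microacinar tumour. Of 28 other sarcomere genes 19 were high in EMT 4, 15 in the Microacinar tumour, 9 in EMT 6 and 7 in Squamous 3. These counts stand beside 6.38%, 3.11%, 9.91% and 2.75% of all genes in that order. Myot, the Z disc protein myotilin, was 4.82 above its median in EMT 4, 3.07 in the Papillary tumour and 4.46 in the Microacinar tumour. Csrp3, a muscle LIM protein of slow fibres and heart, was 4.15 above in EMT 4, 2.63 in the Microacinar tumour, 2.27 in EMT 6 and 0.39 in Squamous 6. Myoz2, the slow-fibre relative of Myoz1, was 3.39, 3.54, 1.33 and −0.01 in the same tumours. Of 25 other genes of excitation and calcium handling 8 were high in EMT 4 and 5 in the Microacinar tumour. The list medians were only 0.28 and 0.11, with the pump regulator Sln at 4.31 and 2.76. Of 27 myogenic regulators and membrane genes 6 were high in EMT 4 and 4 in the Microacinar tumour, with list medians of 0.10 in both. Among the high ones were Des, the muscle intermediate filament desmin, at 3.63 and 1.82, and Myf6, a factor of mature fibres, at 2.49 and 1.44. Of the same 27 genes 5 were high in EMT 5 (11.6% of all genes), where the fast median was −0.86. In EMT 6 (9.91%) 3 were high.

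Of 27 genes of muscle energy supply 9 were high in EMT 4, beside 6.38% of all genes. The deviations there ran from −1.85 to 4.47, with a list median of 0.04. In the Microacinar tumour 12 were high, beside 3.11%, with deviations from −0.62 to 5.27 (list median 0.69). The Papillary tumour had 7 high, beside 2.57%, with deviations from −1.19 to 4.30. EMT 6 had 4 high, beside 9.91%, with deviations from −4.07 to 1.91. EMT 5 (11.6%), Squamous 2 (2.56%) and Squamous 6 (1.63%) also had 4 high each. Ckmt2, the sarcomeric mitochondrial creatine kinase, was 4.47 above its median in EMT 4 and 3.92 in the Microacinar tumour, and Pgam2, the muscle phosphoglycerate mutase, 3.17 and 2.38. Cox8b and Cox7a1, muscle forms of cytochrome oxidase subunits that brown fat also uses, were 2.25 and 1.35 above in EMT 4 and 5.27 and 3.97 in the Microacinar tumour. In the EMT against Squamous fit, limma called 0 genes of each of these 4 lists, and at an unadjusted p under 0.05 it held 2 of the sarcomere genes, 1 of the excitation genes, 8 of the energy genes (3 higher and 5 lower in EMT) and 4 of the regulators (3 higher and 1 lower), beside 14.3% of all genes. The list medians were 0.46, 0.11, 0.08 and 0.05 in that order, and 0.01, −0.02, −0.07 and 0.00 without EMT 4. The energy genes with the largest differences were Fabp3, Cd36 and Lpl, at −2.83, −2.65 and −2.60, which are genes of fatty acid uptake that fat cells and milk-secreting epithelium also express.

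Markers of other tissues also differed among the tumours, both with and without high muscle genes. Of 14 fibroblast and tendon genes 10 were high in EMT 4, beside 6.38% of all genes. The list median was 1.46 there and −2.40 to 0.78 in the other 16 tumours. EMT 5 (11.6% of all genes) and Squamous 9 (6.16%), with 2 and 0 high members, had 5 high fibroblast and tendon genes each. Thbs4, a matrix protein of tendon and muscle, was 3.52 above its median in EMT 4, and Kera, the proteoglycan keratocan, 2.24, while the tendon factor Scx and the tendon membrane protein Tnmd were 0.57 and 0.48 above. The 13 epithelial genes had a median deviation of −3.55 in EMT 4, where single genes ran from −6.29 to 0.70. Their median was −4.92 in EMT 5 and −4.36 in EMT 6, and between −0.46 and 0.40 elsewhere. In the Microacinar tumour 9 of 11 adipocyte genes were high, beside 3.11% of all genes. The list median was 2.28 there, against −0.48 to 1.21 in the other tumours. Squamous 4 (2.39% of all genes) and Squamous 8 (2.77%), with 0 high members, had 7 and 4 high adipocyte genes. Ucp1, the uncoupling protein of brown fat cells, lay at 11.86 in the Microacinar tumour against a median of 4.71. The part of these markers in the muscle gene levels was not tested.

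Heart genes were listed because Myh7, Myl2, Myl3 and Tnnc1 serve the ventricle as well as slow fibres. Of 15 heart genes 0 were high in the Microacinar tumour and 3 in EMT 4, where Tnnt2, the cardiac troponin T that embryonic skeletal muscle also uses, was 2.42 above its median, Actc1, the cardiac actin, 1.31, and Nppb, a natriuretic peptide gene, 1.23. EMT 6 also had 3 high heart genes, and EMT 2, EMT 5 and Squamous 3 had 2 each. The shares of all genes were 3.11% in the Microacinar tumour, 6.38% in EMT 4 and 9.91% in EMT 6. They were 4.7% in EMT 2, 11.6% in EMT 5 and 2.75% in Squamous 3. Tnnt2 was highest in EMT 2, at 10.26, where the slow median was 0.05. The atrial light chain Myl7 had deviations of 0.00 in EMT 4 and 0.01 in the Microacinar tumour, and the heart factor Nkx2-5 had −0.17 in both. Of 13 smooth muscle and myoepithelial genes 1 was high in EMT 4 and 2 were high in the Microacinar tumour. The Papillary tumour had 3 (2.57% of all genes) and Squamous 6 had 4 (1.63%). EMT 5 (11.6%) and Squamous 9 (6.16%), with 2 and 0 high members, also had 4 each, and Squamous 3 (2.75%) had 3. In Squamous 6 Myh11, the smooth muscle myosin, was 2.33 above its median. The 1 gene of EMT 4, and 1 of the 2 of the Microacinar tumour, was Des, which the sarcomere and regulator lists also hold.

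**Figure D5:**
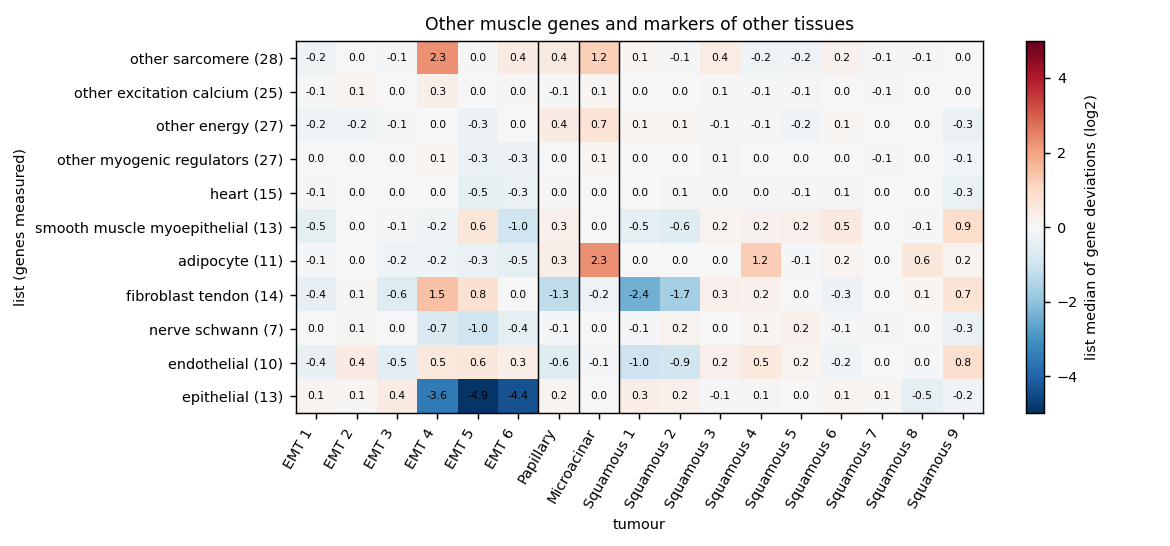
Median deviation (log2) of 4 lists of other muscle genes and 7 lists of other tissues (rows, with the number of genes measured) in each tumour (columns), with the median printed in each cell. The other sarcomere list stands at 2.28 in EMT 4 and 1.18 in the Microacinar tumour, beside fibroblast and tendon genes at 1.46 in EMT 4 and adipocyte genes at 2.28 in the Microacinar tumour.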

How the data were processed

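Total RNA of 17 mammary tumours was measured as biotinylated cRNA on Affymetrix arrays, following the labels' protocols. The table the authors deposited holds 1 log2 value per probe set and array. How they summarized and normalized it is not given in the sources used here, the scale was inferred from the range of the numbers, and they were used without further normalization.

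Of 22690 probe sets, 64 controls were left out, 20380 named 1 gene, 691 several and 1555 none, by the supplied probe table, and 20351 matched the supplied gene table by gene identifier. Of several probe sets, that of highest mean stood for each of 12393 genes. The number of arrays limits the precision.

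Histology defined the groups. The 6 EMT and 9 Squamous tumours were fitted with limma 3.58.1 in R 4.3.3 (histology plus title format, lmFit and eBayes, Benjamini-Hochberg adjustment over all genes, threshold 0.05), and the model was tested on simulated data. Deviations from each gene's median, with a threshold of 1 log2, describe single tumours. Python 3.11.15, pandas 2.3.3, numpy 2.4.6 and matplotlib 3.10.9 were used.

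The members and the other lists were chosen with earlier results of these data known. All members are named and, of each other list, genes among the 3 with the largest absolute EMT minus Squamous difference and the 3 furthest above their median in each tumour with a member median over 1. The comparison of Myh1 with Myh4 over single tumours was chosen after the values were seen. Alternatives covered normalization, probe set choice, low genes, the model, title formats, a shared title number, thresholds and leaving out each tumour.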

Additional observations from a re-analysis of the deposited data

Results flagged for a closer look

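Each member and each class median was checked for a tumour that stands apart from the rest of its histology, by the gap to the nearest tumour over the group's whole range (Dixon's critical value). Of 74 groups 13 held such a tumour, where chance gives about 1 in 20, and the groups share tumours, so they are not independent. EMT 4 was the highest EMT tumour in 9 of the 13. It lay far above the next EMT tumour in Myh7 (9.40, next 5.19), Myh3 (6.33, next 5.01), Myl2 (9.35, next 5.19), Actn2 (9.14, next 6.26), Casq1 (8.86, next 6.86), Myoz1 (7.90, next 6.14) and Myog (6.49, next 4.87). The same held for its median deviation of slow members (4.35, next 0.33) and of developmental members (1.16, next 0.13). Squamous 3 was the highest Squamous tumour in Myh8 (4.61, next 4.04) and in the median deviation of developmental members (0.46, next 0.05). Squamous 9, the TM array of its group, was the highest in Myh7 (5.04, next 4.83) and the lowest in Myl2 (3.64, next 4.69), and its Myh7 value equalled that of the TM array EMT 5. Among fast members 0 tumours stood apart in this way.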

How the results depend on the processing

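No paired analysis was possible because the tumour numbers were given in accession order and only name the tumours. With any 1 tumour left out, limma called 0 members, and the median difference ran from −0.04 to 1.06 over all members, −0.12 to 1.22 over fast, 0.15 to 1.32 over slow and −0.04 to 0.30 over developmental members, each lowest without EMT 4. Of 1205 alternative values of single genes 41 had the opposite sign. Most arose without EMT 4, with ranges over the left-out tumours of −0.0215 to 1.31 for Ckm, −0.18 to 1.20 for Myh2, −0.43 to 1.14 for Myh4, −0.12 to 0.11 for Myh8, −0.29 to 1.24 for Tnnt3, −0.12 to 1.38 for Tnni2, −0.0258 to 0.99 for Tnni1, −0.0964 to 0.98 for Actn2, −0.0183 to 0.86 for Actn3, −0.0604 to 1.22 for Atp2a1, −0.25 to 0.77 for Pvalb, −0.12 to 1.05 for Mb, −0.18 to 0.59 for Casq1, −0.21 to 1.02 for Ryr1, −0.0078 to 1.65 for Ttn, −0.13 to 0.53 for Myoz1, −0.0956 to 0.79 for Tcap, −0.0701 to 0.54 for Cacna1s, −0.14 to 0.66 for Pygm, −0.0018 to 0.47 for Myog, −0.0768 to 0.14 for Myod1, −0.11 to 0.72 for Cox6a2, −0.14 to 1.03 for Sln and −0.0502 to 1.03 for Des. Only Myh8 also changed sign without a Squamous tumour (Squamous 4, 5 or 7). The probe set with the lowest mean gave −0.0572 for Myh1, −0.0286 for Mb, 0.0343 for Dmd and −0.11 for Des. Array weights gave −0.16 for Myh4, −0.0489 for Myh8, −0.0169 for Tnnt3 and −0.026 for Pygm. Without the title format term Myh8 was at −0.01, Pygm at −0.0645 and Myod1 at −0.10, and on the TM arrays alone Tnni1 was at −1.37, Myog at −0.14 and Casq2 at −0.23. The cause was not tested. At an unadjusted p under 0.05, a threshold added after the data were seen, 1 member passed. The number of tumours with a member median over the threshold was 5, against 3 with the lowest-mean probe sets and 2 at a threshold of 2 log2, where the developmental count became 0. That number of tumours was 7 with genes centred on the Squamous median and 4 or 5 in the other planned settings. In an unplanned setting, with genes centred without EMT 4, the number was 6. At 2 log2 the high members numbered 4 in EMT 2, 9 in EMT 6 and 13 in the Papillary tumour, and EMT 2 also had 4 on the numbered arrays alone. The filter to genes above the median level left 3 members and gave no class medians. Cd36, no member, passed the adjusted threshold without EMT 1 (−2.97). Low signal limits the slow and developmental genes, and without detection calls a low value cannot be told from background.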
